A study of Homo sapiens with 72 samples.

Results

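The mitosis genes described here are 43 protein-coding genes of the G2/M programme, taken by name from a given list and matched by Ensembl identifier to the expression tables. All 43 were found among the 60371 genes listed for every library, and all 43 passed the filter on low counts in every comparison against DMSO. They were followed in U2OS cells, a human osteosarcoma line, in which RNA was collected 12 h after addition of a compound. There were 18 wells with DMSO, the solvent, and 3 wells for each of 6 compounds at 100, 1000 and 10000 nM, 72 wells in all. The compounds were Triptolide, an inhibitor of transcription, Homoharringtonine, an inhibitor of translation, Pyrazolanthrone, an inhibitor of JNK kinases, Nilotinib, an inhibitor of the ABL kinase, MK-2206, an inhibitor of AKT kinases, and Miglitol, an inhibitor of alpha-glucosidases. All wells held the same cell line, with no genetic change between groups. The wells were separate wells of culture plates, so the p-values measure the spread between wells of 1 line and not between lines.

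Mitosis genes are transcribed in a wave that begins in late S phase and peaks in G2 and M. Between divisions many of them are held off by the DREAM complex, and later they are switched on by the MuvB core together with B-MYB and FOXM1. In their promoters MuvB recognises a short element called CHR, and NF-Y binds CCAAT boxes a little further upstream. The proteins are destroyed in an ordered way as mitosis ends, largely through the anaphase-promoting complex, to which CDC20 brings the substrates. CCNF, or cyclin F, is the substrate receptor of a different ubiquitin ligase, SCF, and works in G2.

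The promoters of 5 members are printed because their transcripts moved in different ways, as described further on, although each of these promoters holds the same CHR element. The windows are the 100 bases before the RefSeq transcription start in GRCh38.p14, read 5′ to 3′ on the strand of the gene, and capitals mark CHR elements (TTTGAA or TTCGAA) and CCAAT boxes on either strand. The windows lie at chr16:2429347-2429446 on the plus strand for CCNF, at chr1:43358881-43358980 on the plus strand for CDC20 and at chr1:37692416-37692515 on the plus strand for CDCA8. They lie at chr11:28108157-28108256 on the minus strand for KIF18A and at chr16:23678789-23678888 on the plus strand for PLK1. In the CDCA8 window the CHR element runs into a CCAAT box on the opposite strand.
CCNF: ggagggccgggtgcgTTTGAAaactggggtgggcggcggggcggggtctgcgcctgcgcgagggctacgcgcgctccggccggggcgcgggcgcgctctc
CDC20: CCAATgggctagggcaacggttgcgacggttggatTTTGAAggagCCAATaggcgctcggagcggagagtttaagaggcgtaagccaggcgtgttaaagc
CDCA8: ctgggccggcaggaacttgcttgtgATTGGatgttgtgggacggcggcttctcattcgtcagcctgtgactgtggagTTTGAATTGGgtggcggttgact
KIF18A: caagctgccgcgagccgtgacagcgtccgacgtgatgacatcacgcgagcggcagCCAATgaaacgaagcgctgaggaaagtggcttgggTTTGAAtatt
PLK1: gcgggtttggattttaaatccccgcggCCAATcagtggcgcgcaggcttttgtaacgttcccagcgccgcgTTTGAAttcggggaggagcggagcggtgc

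The element is common to the set. Promoter sequences (250 bases before to 50 after the start) were found in RefSeq for 36 of the 43 members. Of these, 26 held a CHR element, or 72.2%, against 16.4% of all 35116 promoters of the same length. Within 50 bases of the start the shares were 58.3% and 5.0%. CCAAT was found in 77.8% of the members' promoters and 34.6% of all promoters, and GGCGC, the core of many E2F sites, in 83.3% and 48.6%; all motifs were searched on both strands. These are matches of letters and not measured binding sites. AURKA, BIRC5, BUB3, FOXM1, TPX2, TTK and UBE2C had no promoter entry.

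**Figure D1:**
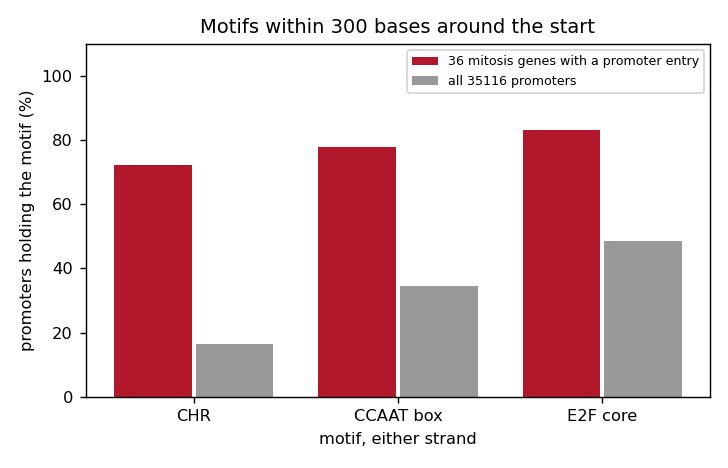
Share of promoters, in percent, that hold a CHR element, a CCAAT box or the E2F core on either strand, for the 36 mitosis genes with a promoter entry (red) and all 35116 promoters (grey). The CHR bars stand at 72.2% and 16.4%.

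Depth was uneven in a few wells. Library totals ran from 70767 to 68296309 expected counts with a median of 38.4 mil, and 3 libraries were under 10 mil. The shallowest was replicate 2 of Triptolide at 100 nM, and the others were replicate 10 of DMSO (460014 counts) and the first replicate of Triptolide at 1000 nM (9628355 counts). In the shallowest library CDC20 had 22 counts and CCNF 6 counts, so its level of CCNF in particular is imprecise. The mesenchymal genes VIM and SPARC had median levels of 1867.62 and 2136.68 TPM (a level per unit of transcript length and per mil transcripts) in DMSO, and EPCAM, PTPRC and PECAM1, which mark other lineages, had 2.38, 0.04 and 0.11 TPM. The bone-lineage genes RUNX2 and TNFRSF11B were low, at 3.8 and 4.0 TPM, and COL1A2 was near 0, at 0.07 TPM.

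In DMSO the mitosis genes spanned about 2 orders of magnitude in TPM. CDC20 was the highest, with a median of 647.8 TPM (lowest 482.1, highest 742.0, n = 18), followed by the mitotic cyclin CCNB1 with 454.6 TPM (413.4 to 617.0). Their ranges overlapped, as did those of the next members in the order, PTTG1 (securin) at 366.8, BIRC5 (survivin) at 330.4, FOXM1 at 302.6 and UBE2C, a ubiquitin-conjugating enzyme of mitosis, at 302.5 TPM. CCNF was 25th of the 43 with 82.2 TPM (70.43 to 97.71). The lowest were the kinesin KIF18A with 13.17 TPM, the checkpoint kinase TTK with 7.43 TPM (3.92 to 34.13) and the kinetochore motor CENPE with 6.12 TPM. The members also differed in how steady they were between DMSO wells. The coefficient of variation (CV) was 4.1% for the kinesin KIF2C and 4.4% for CDCA8, but 76.4% for TTK and 72.1% for CENPE. Across the 43 genes the CV was higher where the transcript was poorer in G and C (Pearson's r -0.67, Spearman's rho -0.83, across genes of the same wells, which are not independent). Differences in the lowest and most variable members are therefore measured less precisely.

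CCNF and CDC20 parted only above the lowest dose of Triptolide. CCNF (chr16:2429394-2458854 in GRCh38, plus strand) was at 30.51, 22.22 and 32.0 TPM with Triptolide at 100 nM, at 2.34, 2.48 and 2.62 TPM at 1000 nM and at 2.9, 2.79 and 2.63 TPM at 10000 nM. All 9 wells were under the lowest DMSO well, and the wells of the 2 higher doses were more than 10 times lower than those at 100 nM by their medians. CDC20 (chr1:43358981-43363203 in GRCh38, plus strand) was at 194.55, 214.04 and 178.54 TPM at 100 nM, at 210.75, 190.98 and 154.59 TPM at 1000 nM and at 167.85, 155.79 and 176.42 TPM at 10000 nM. These wells too were all under the lowest DMSO well, but they stayed at nearly 1 level over the doses. With TMM scaling, which sets each library against the bulk of its genes, the log2(Fold Change) of CCNF was -0.95 (SE 0.13, padj 1.62e-06) at 100 nM, -4.44 (SE 0.15, padj 8.18e-18) at 1000 nM and -4.18 (SE 0.14, padj 3.83e-18) at 10000 nM. For CDC20 it was -1.21 (SE 0.15, padj 3.14e-07), -1.18 (SE 0.14, padj 3.99e-08) and -1.18 (SE 0.13, padj 2.47e-08). In bulk RNA from a well, fewer cells in G2 and M and less mRNA per cell cannot be told apart.

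The log2 ratio of CCNF to CDC20 in TPM puts the pair on 1 scale within each well, free of library scaling. It was -2.868 ± 0.149 (SD, n = 18) in DMSO. With Triptolide it was -2.807 ± 0.411 at 100 nM, -6.214 ± 0.308 at 1000 nM and -5.909 ± 0.14 at 10000 nM (SD, n = 3 each), a difference from DMSO of -3.346 and -3.041 at the 2 higher doses. The pair was chosen for this difference, so it is given as a description with no test. The ratio was also lower at the 3 doses of Homoharringtonine, which the choice did not use, with differences from DMSO of -0.726, -0.464 and -0.334 (adjusted p = 0.011, 0.011 and 0.03 in a two-sided exact permutation test, the smallest possible raw p being 0.0015; adjusted over 15 groups). In the other 12 groups the ratio differed from DMSO by -0.151 to 0.085 with adjusted p from 0.44 to 0.99. CDC20 has a pseudogene, CDC20P1, which took 5.21% of their summed TPM in DMSO and from 3.21% to 5.89% in the other groups, and adding it left the change of CDC20 with Triptolide at 1000 nM at -1.754 against -1.745 on the log2 scale of mean TPM.

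**Figure D2:**
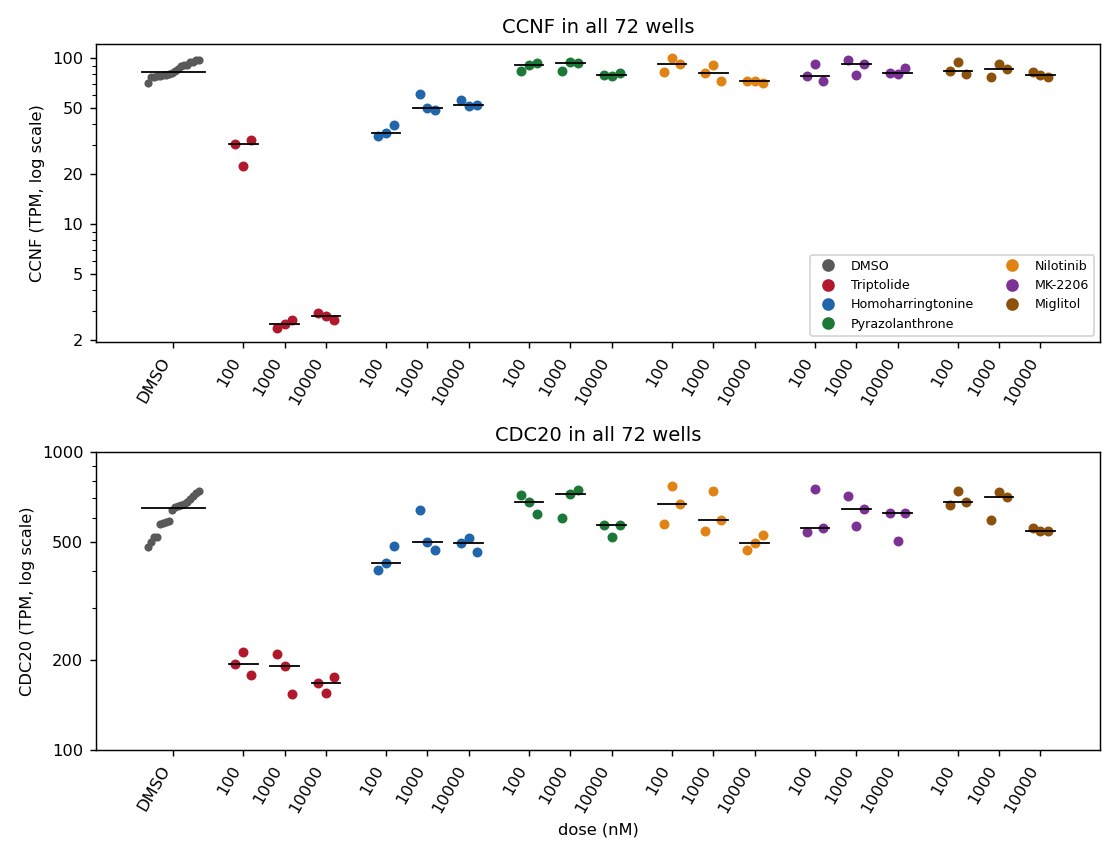
Level of CCNF (top) and CDC20 (bottom) in TPM on log axes in all 72 wells, by compound and dose in nM; each point is a well and black lines are medians. CCNF drops from about 30.51 TPM at 100 nM Triptolide to 2.48 TPM at 1000 nM, while CDC20 lies between 154.59 and 214.04 TPM at all 3 doses.

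With Homoharringtonine the difference between the 2 genes was small. CCNF was at 33.72, 35.38 and 39.39 TPM at 100 nM, at 60.74, 50.07 and 48.43 TPM at 1000 nM and at 55.99, 51.5 and 52.54 TPM at 10000 nM, below every DMSO well at each dose. Its log2(Fold Change) was -0.98 (SE 0.12, padj 1.23e-07), -0.59 (SE 0.12, padj 1.68e-04) and -0.74 (SE 0.10, padj 4.85e-07). CDC20 was at 400.82, 425.77 and 485.07 TPM at 100 nM and at 637.21, 501.12 and 471.18 TPM at 1000 nM, and the ranges overlapped the DMSO range at both doses. Its log2(Fold Change) was -0.32 (padj 0.0414), -0.07 (padj 0.648) and -0.37 (padj 0.0081). The value at 100 nM missed the threshold with no filter (padj 0.0653), with the mitochondrial scaling (padj 0.25), with each library's slope of read level on transcript GC content as a covariate (-0.113, padj 0.225) and without replicate 1 (-0.231, padj 0.227) or replicate 2 (-0.28, padj 0.152). The value at 10000 nM was 0.022 (padj 0.862) with the GC slope and -0.686 (padj 0.0613) with the mitochondrial scaling, and that of CCNF at 1000 nM was -0.634 (padj 0.104) with the mitochondrial scaling. With the other 4 compounds the medians of CCNF lay between 72.46 and 92.91 TPM and those of CDC20 between 496.2 and 723.6 TPM, inside the DMSO ranges. Among these, CCNF at 10000 nM Nilotinib had the lowest median, with a log2(Fold Change) of -0.29 (SE 0.10, padj 0.0472).

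Triptolide lowered most mitosis genes, and their median fall was larger at 1000 than at 100 nM. At 100 nM 31 of the 43 fell and 1 rose at an adjusted p under 0.05, at 1000 nM 31 fell and 5 rose, and at 10000 nM 32 fell and 5 rose. Over all genes tested, 32.3%, 38.6% and 39.7% fell and 24.5%, 28.8% and 32.2% rose at these doses. Beyond a log2(Fold Change) of 1 as well, 18, 25 and 25 members were lower, against 20.9%, 30.4% and 30.2% of all genes, and 0, 1 and 1 were higher, against 11.4%, 13.9% and 16.2%. The members' median log2(Fold Change) was -0.858, -1.343 and -1.404, beside -0.159, -0.213 and -0.165 for all genes. Without the libraries under 10 mil the numbers were close, 29 fallen and 3 risen at 100 nM and 31 and 5 at 1000 nM. The summed TPM of the 43 genes was 5666 to 6793 in DMSO. With Triptolide it was 2552 to 3475 at 100 nM and 2401 to 2590 at 1000 nM, with no overlap with DMSO. The ranges of these doses overlapped each other, and the value of 3475 came from the library of 70767 counts.

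These directions are relative to the bulk of genes, and they depend on it in Triptolide more than elsewhere. Scaling to library size alone moved the median of all genes by -0.336, -0.457 and -0.532 (log2) at the 3 doses, and scaling to the 13 mitochondrially encoded mRNAs moved it by -1.653, -2.468 and -2.754. With the mitochondrial scaling all 43 members fell at each dose, as did 80.2%, 95.5% and 98.3% of all genes. With library size 35, 34 and 37 members fell and 0, 1 and 1 rose, where 43.5%, 50.0% and 53.2% of all genes fell and 15.3%, 16.8% and 17.9% rose. The mitochondrially encoded mRNAs themselves made up 0.138 to 0.367% of the counts in DMSO, 0.518 to 0.625% with Triptolide at 100 nM, 0.768 to 1.087% at 1000 nM and 1.007 to 1.151% at 10000 nM. The part of this shift in the members' changes was not tested.

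By role, the group of mitotic kinases fell most evenly, with 4 of 4 down at each dose of Triptolide and a median log2(Fold Change) of -3.054 at 1000 nM. Of all genes, 32.3%, 38.6% and 39.7% fell at the 3 doses. The kinases AURKB, BUB1, BUB1B and CDK1 are counted in other groups, and CDK1 did not pass the test at 1000 nM, as given below. AURKA, the kinase of the spindle poles, was at 115.65 to 197.23 TPM in DMSO, at 33.51, 60.15 and 30.93 TPM at 100 nM, at 6.88, 6.32 and 6.07 TPM at 1000 nM and at 5.95, 5.74 and 4.66 TPM at 10000 nM. No well overlapped DMSO, and the log2(Fold Change) was -1.78 (SE 0.15), -4.01 (SE 0.16) and -4.29 (SE 0.16), with padj 7.15e-10, 9.95e-17 and 1.46e-17. PLK1, which drives mitotic entry and spindle assembly, was already far down at the lowest dose, at 43.91, 133.39 and 39.15 TPM against 186.07 to 275.23 in DMSO. At 1000 nM it was at 24.52, 25.31 and 18.39 TPM, with a log2(Fold Change) of -2.84 (SE 0.16, padj 1.12e-13). The high value of 133.39 TPM came from the library of 70767 counts. TTK fell by 4.80 on the log2 scale at 10000 nM (SE 0.74, padj 2.97e-06), and was listed at 0.22, 0.3 and 0.87 TPM there. Its fall at 100 nM missed the threshold without replicate 1 (-2.037, padj 0.105). NEK2, a centrosome kinase, had -2.19 (SE 0.16, padj 7.17e-12) at 1000 nM.

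Among the cyclins, CDK1 and the CDC25 phosphatases that activate CDK1, 6, 6 and 7 of 7 fell, against 32.3%, 38.6% and 39.7% of all genes. CCNF was the lowest of them at both higher doses. CCNA2, or cyclin A, had a log2(Fold Change) of -3.21 (SE 0.31, padj 1.36e-09) at 1000 nM and CCNB1 -2.54 (SE 0.17, padj 3.41e-12), while the least changed was CDK1 with -0.69 (SE 0.31, padj 0.0538). CCNB2 went against the order of doses, with -1.72 (SE 0.21) at 100 nM and -0.99 (SE 0.19) at 1000 nM.

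The 4 genes of the chromosomal passenger complex, which corrects faulty attachments of chromosomes to the spindle, did not move together. CDCA8, or borealin, was at 95.18 to 118.07 TPM in DMSO, at 41.59, 13.81 and 36.98 TPM at 100 nM, at 3.8, 4.04 and 3.8 TPM at 1000 nM and at 3.88, 3.4 and 3.25 TPM at 10000 nM. Its wells lay far below DMSO, with a log2(Fold Change) of -4.15 (SE 0.11, padj 2.31e-19) at 1000 nM. INCENP, the scaffold of the complex, had -0.48 (SE 0.14, padj 0.00396) at 100 nM but -3.06 (SE 0.15, padj 4.99e-15) at 1000 nM, and AURKB, its kinase, had -1.61 (SE 0.19, padj 5.3e-08) there. BIRC5, the fourth subunit, had 0.65 (SE 0.11, padj 9.55e-06) at 1000 nM and 0.68 (SE 0.11, padj 3.55e-06) at 10000 nM, but only 0.202 (padj 0.0757) and 0.14 (padj 0.194) with scaling to library size and -1.816 and -2.132 with the mitochondrial scaling. In TPM its wells, 356.11, 394.43 and 297.85 at 1000 nM, lay within the DMSO range of 265.42 to 431.55.

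FOXM1, the transcription factor of the programme, was the only member past a log2(Fold Change) of 1 upwards with Triptolide. It was at 238.78 to 356.26 TPM in DMSO, at 273.49, 399.47 and 281.39 TPM at 100 nM, at 435.93, 393.57 and 327.13 TPM at 1000 nM and at 363.47, 355.04 and 431.55 TPM at 10000 nM, so that the TPM ranges overlapped DMSO at each dose. Its log2(Fold Change) was 0.45 (SE 0.12, padj 0.00213), 1.03 (SE 0.11, padj 5.67e-09) and 1.12 (SE 0.11, padj 9.56e-10), with library size 0.205 (padj 0.169), 0.578 and 0.573, and with the mitochondrial scaling -1.071, -1.435 and -1.691. Without the libraries under 10 mil it was 0.947 (padj 6.36e-07) at 1000 nM, no longer past 1. FOXM1 overlaps RHNO1, which had 107.236 TPM in DMSO, so reads of the 2 genes may not be fully told apart.

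Kinetochore genes fell in 4 of 5 cases at each dose, where 32.3%, 38.6% and 39.7% of all genes fell. The lowest at 1000 nM was CENPF, a large kinetochore and matrix protein, with -3.48 (SE 0.35, padj 2.77e-09). NUF2, which forms 1 complex with NDC80, had 0.17 (padj 0.576) at the same dose, while NDC80 had -2.53 (SE 0.36, padj 1.07e-06). In the spindle checkpoint group, the kinases BUB1 and BUB1B had -1.44 (SE 0.16) and -1.52 (SE 0.24), with padj 1.69e-08 and 5.31e-06. MAD2L1, the checkpoint protein that binds CDC20, had 0.60 (SE 0.21, padj 0.0124), which was 0.137 (padj 0.578) with library size and -1.847 with the mitochondrial scaling. UBE2C, of the group around the anaphase-promoting complex, had -1.34 (SE 0.15, padj 2.69e-08), close to CDC20. PTTG1, a substrate of that complex, had 0.22 (SE 0.13, padj 0.137).

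The spindle motors and microtubule binders ranged from KIF11, the motor that separates the spindle poles, at -3.16 (SE 0.36, padj 2.28e-08) to HMMR at 0.15 (SE 0.22, padj 0.559) at 1000 nM. KIF18A, which limits microtubule length at kinetochores, did not pass the test at 100 nM (0.07, SE 0.28, padj 0.866) and had -2.43 (SE 0.32, padj 2.48e-07) at 1000 nM. In the midzone and cytokinesis group the extremes stood close in function. KIF23, a motor of the central spindle, had -3.33 (SE 0.21, padj 8.73e-13), and PRC1, the bundler of midzone microtubules, had -0.86 (SE 0.15, padj 3.28e-05) at 100 nM and 0.37 (SE 0.13, padj 0.0138) at 1000 nM. The positive value was -0.086 (padj 0.552) with library size and -2.08 with the mitochondrial scaling. ANLN, a scaffold of the contractile ring, had 0.53 (SE 0.21, padj 0.0312), 0.061 with library size and -1.918 with the mitochondrial scaling. TOP2A, which untangles chromosomes, had -0.53 (padj 0.123).

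**Figure D3:**
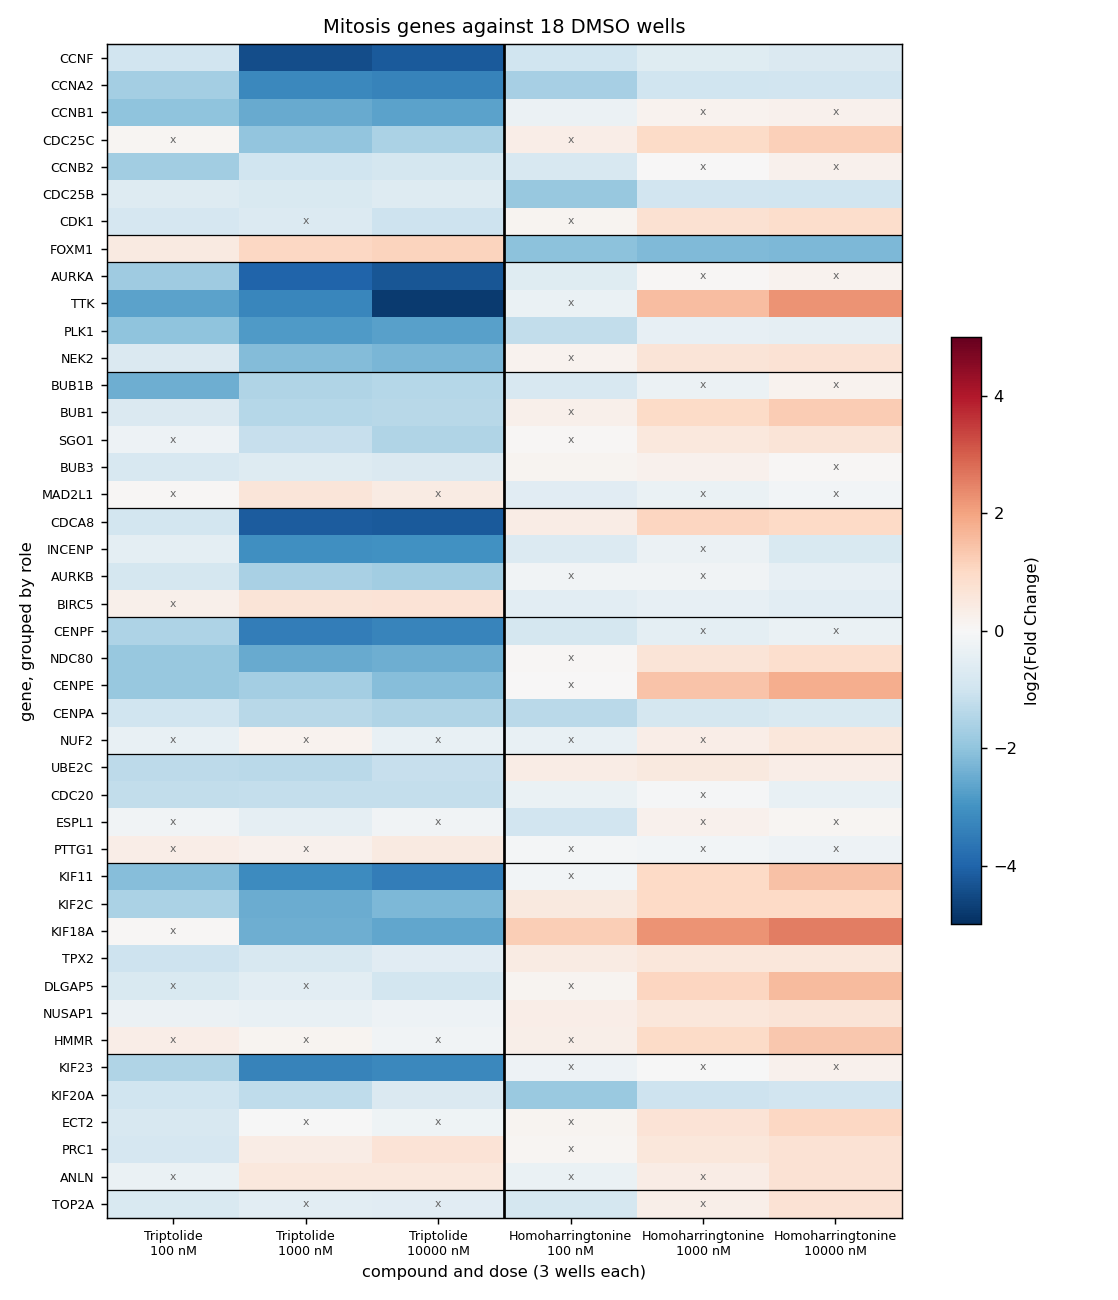
log2(Fold Change) of the 43 mitosis genes (rows, grouped by role with black lines between groups, ordered in each by Triptolide at 1000 nM) against 18 DMSO wells, for Triptolide and Homoharringtonine at 100, 1000 and 10000 nM, 3 wells each; a cross marks an adjusted p of 0.05 or above. CCNF is at -4.44 and FOXM1 at 1.03 with Triptolide at 1000 nM, and FOXM1 is at -2.20 and KIF18A at 2.24 with Homoharringtonine at that dose.

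Homoharringtonine moved some mitosis genes up and others down, and without a GC covariate the balance shifted with dose. With each library's GC slope as a covariate, risen members no longer outnumbered fallen ones at 10000 nM, as given further on. At 100 nM 7 rose and 18 fell at an adjusted p under 0.05, at 1000 nM 20 rose and 8 fell, and at 10000 nM 22 rose and 11 fell, where 31.1%, 35.0% and 36.7% of all genes rose and 32.3%, 33.4% and 37.2% fell. Past a log2(Fold Change) of 1, 1, 5 and 9 were higher and 6, 3 and 1 lower, beside 15.6%, 21.5% and 23.6% of all genes higher and 19.3%, 20.9% and 23.4% lower. The members' median log2(Fold Change) was -0.264, 0.277 and 0.316, and that of all genes -0.032, -0.013 and -0.051. In each direction and at each dose the members' share past the threshold lay below that of all genes.

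FOXM1 had the lowest log2(Fold Change) of the members at 1000 and 10000 nM, and at 100 nM it stood with CDC25B, KIF20A and CCNA2. It was at 52.32, 62.96 and 65.58 TPM at 100 nM, at 68.68, 55.75 and 55.56 TPM at 1000 nM and at 63.97, 62.11 and 66.87 TPM at 10000 nM, against at least 238.78 TPM in DMSO. The log2(Fold Change) was -2.05 (SE 0.14, padj 8.09e-12), -2.20 (SE 0.15, padj 4.67e-12) and -2.25 (SE 0.13, padj 1.44e-13), the same within its error from 100 to 10000 nM. The other members that were lower past 1 at 100 nM were the phosphatase CDC25B with -1.89 (SE 0.12, padj 1.64e-12), the cytokinesis motor KIF20A with -1.87 (SE 0.15, padj 1.07e-10), CCNA2 with -1.65 (SE 0.24, padj 2.13e-06), the centromeric histone CENPA with -1.33 (SE 0.13, padj 1.74e-09) and PLK1 with -1.23 (SE 0.15, padj 8.12e-08). With the GC slope as a covariate CCNA2 (-1.998) and KIF20A (-1.882) were lower than FOXM1 (-1.848) at this dose. All 5 were nearer to DMSO at 10000 nM, from -0.998 for CDC25B to -0.45 for PLK1, which was -0.052 (padj 0.665) with the GC slope. In that fit CCNA2 was still at -1.719 (padj 3.01e-10) at 10000 nM, little changed from 100 nM. KIF20A was at -1.045, CENPA at -0.69 and CDC25B at -0.647 there. PLK1 was at 80.88, 90.9 and 96.4 TPM at 100 nM and at 192.24, 191.85 and 181.45 TPM at 10000 nM.

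The group of spindle motors and microtubule binders went up together, with 7 of 7 risen at 1000 and 10000 nM, where 35.0% and 36.7% of all genes rose. Its median log2(Fold Change) was 0.985 and 1.346. Motors of the midzone group are not counted here, among them KIF20A, which was lower at both doses (-1.186 and -1.008 with library size). At 1000 nM 4 of the 7 passed without replicate 3. At 10000 nM TPX2 had 0.312 (padj 0.134) and NUSAP1 0.389 (padj 0.0769) with the mitochondrial scaling, and TPX2 had 0.181 (padj 0.108) with the GC slope as covariate, a setting added after seeing the data. In that fit the group's median was 0.462 at 1000 nM and 0.497 at 10000 nM, and the wells at 10000 nM stood apart from DMSO in their GC slope, as given further on; the part of this slope in the result was not tested beyond this fit. KIF18A rose at every dose, from 8.6 to 28.78 TPM in DMSO to 37.0, 28.81 and 22.79 TPM at 100 nM, 37.32, 59.05 and 98.24 TPM at 1000 nM and 79.76, 73.9 and 101.05 TPM at 10000 nM. Its wells overlapped DMSO at 100 nM and not above, and the log2(Fold Change) was 1.25 (SE 0.22, padj 2.64e-05), 2.24 (SE 0.23, padj 4.7e-09) and 2.54 (SE 0.20, padj 4.73e-11). CDCA8 was at 113.34, 114.26 and 116.91 TPM at 100 nM, at 202.2, 211.34 and 212.63 TPM at 1000 nM and at 225.42, 216.43 and 220.96 TPM at 10000 nM, tight groups that stood clear of DMSO at the 2 higher doses. Its log2(Fold Change) was 0.36 (SE 0.07, padj 7.69e-05), 1.06 (SE 0.06, padj 5.15e-13) and 0.99 (SE 0.06, padj 4.27e-13), of which the first was 0.125 (padj 0.0951) with library size, 0.251 (padj 0.388) with the mitochondrial scaling and 0.278 (padj 0.0576) with a replicate block. KIF2C, a microtubule depolymerase, was as steady, with 0.98 (SE 0.06, padj 1.05e-12) at 1000 nM.

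Other risers spread widely between wells. TTK was at 9.0, 23.24 and 53.03 TPM with Homoharringtonine at 1000 nM and at 46.53, 36.78 and 64.4 TPM at 10000 nM, with a log2(Fold Change) of 1.56 (SE 0.46, padj 0.00459) and 2.25 (SE 0.40, padj 2.47e-05). CENPE had 1.41 (SE 0.44, padj 0.00693) and 1.80 (SE 0.41, padj 3.84e-04), and DLGAP5, a spindle protein, 1.09 (SE 0.31, padj 0.00346) and 1.58 (SE 0.27, padj 1.49e-05). Without replicate 3 at 1000 nM, TTK had 0.798 (padj 0.22), CENPE 0.749 (padj 0.229), KIF11 0.53 (padj 0.144) and HMMR 0.511 (padj 0.089), and CDK1, ECT2 and PLK1 also lost their adjusted p under 0.05. The wells with Homoharringtonine at 10000 nM differed from DMSO in how read levels followed the GC content of transcripts, with a slope of -0.245 to -0.156 log2 units for each 10 percentage points of GC content, against -0.094 to 0.406 in DMSO. The slope was computed from the levels in the same libraries. At this dose its range did not overlap that of DMSO, so slope and compound cannot be fully told apart in a fit. With this slope as a covariate, a choice made after seeing the data, 13 rose and 16 fell at 10000 nM. TTK had 0.656 (padj 0.0694) and CENPE 0.718 (padj 0.212). In the same fit KIF18A had 1.716 (padj 1.59e-08), CDCA8 1.09 (padj 2.02e-12) and FOXM1 -1.872 (padj 1.62e-14). Across the 43 genes the change with Homoharringtonine at 1000 nM was higher for transcripts of lower GC content (r -0.55, rho -0.55) and for longer genes (r 0.48, rho 0.49), as a description of genes measured in the same wells. The relation to gene length was also seen with Miglitol at 10000 nM (r 0.55, rho 0.56). It was reversed with Miglitol at 100 nM (r -0.6, rho -0.64), so it is not particular to Homoharringtonine.

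Set directly against each other, the 2 compounds differed mainly in 1 direction. Triptolide was lower than Homoharringtonine past a log2(Fold Change) of 1 in 13, 27 and 29 members at 100, 1000 and 10000 nM, where 27.4%, 35.9% and 37.9% of all genes were. It was higher in 2 at each dose, where 20.5%, 22.6% and 30.2% of all genes were. At an adjusted p under 0.05 alone it was lower in 26, 31 and 35 members and higher in 7, 3 and 6, against 35.8%, 38.9% and 47.0% of all genes lower and 29.7%, 27.9% and 41.4% higher. The medians of the members' differences were -0.81, -1.451 and -1.526, beside -0.101, -0.306 and -0.167 for all genes.

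Among the members that were higher with Triptolide, FOXM1 had the largest difference at each dose, with Triptolide above Homoharringtonine by 2.55 (SE 0.18, padj 2.63e-09), 3.22 (SE 0.17, padj 2.77e-06) and 3.45 (SE 0.09, padj 8.06e-11), and it stayed above with library size (2.47, 2.924 and 2.868) and with the mitochondrial scaling (1.051, 0.817 and 0.87), where the difference at 1000 nM missed the threshold (padj 0.0801). BIRC5 was above by 1.05 (SE 0.15, padj 3.63e-04) at 1000 nM, by 0.752 with library size, and below with -1.34 in the mitochondrial scaling. At 100 nM the second gene past 1 was CDC25B with 1.34 (SE 0.19, padj 1.09e-05), 1.187 with library size and -0.302 (padj 0.215) with the mitochondrial scaling. At 1000 nM CDCA8 was lower with Triptolide by a log2 difference of -5.22 (SE 0.18, padj 9.59e-07), TTK by -4.86 (SE 0.74, padj 4.92e-04), KIF18A by -4.70 (SE 0.45, padj 3.69e-05), KIF11 by -4.18 (SE 0.50, padj 1.23e-04) and AURKA by -4.07 (SE 0.20, padj 2.38e-06). CCNF did not pass the test between the compounds at 100 nM, at 0.12 (SE 0.18, padj 0.593), and then stood at -3.86 (SE 0.22, padj 3.12e-06) and -3.36 (SE 0.08, padj 3.76e-11). The difference for CDC20 was -0.83 (SE 0.18, padj 7.28e-04), -1.11 (SE 0.17, padj 5.61e-04) and -0.73 (SE 0.07, padj 1.57e-06).

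**Figure D4:**
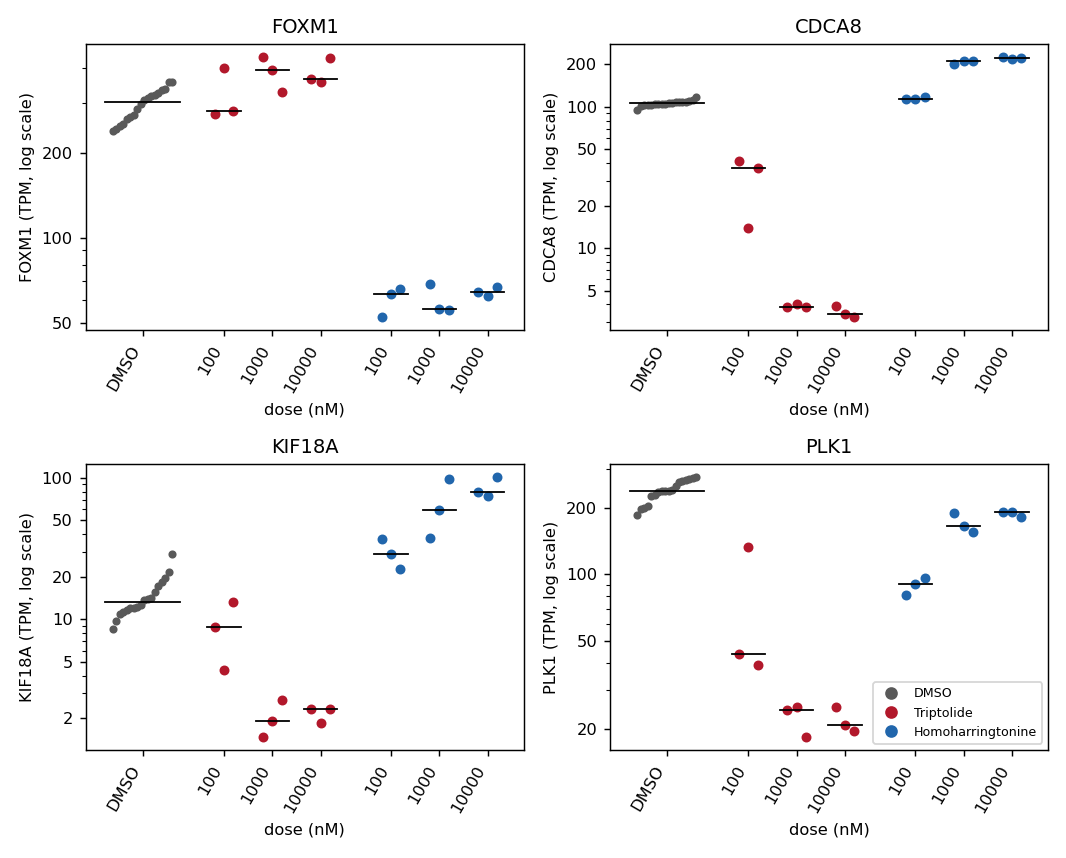
Level in TPM on log axes of FOXM1, CDCA8, KIF18A and PLK1 in the DMSO, Triptolide and Homoharringtonine wells, by dose in nM; points are wells and black lines medians. FOXM1 overlaps the DMSO wells with Triptolide at each dose and lies between 52.32 and 68.68 TPM with Homoharringtonine. CDCA8 and KIF18A go in opposite directions with the 2 compounds at 1000 nM and above, and PLK1 lies below DMSO with Triptolide at every dose.

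Trends over the 3 doses were fitted on log10 dose in the 9 treated wells of a compound. With Triptolide 17 members had a downward trend and 1 an upward trend at an adjusted p under 0.05, against 17.7% and 6.40% of all genes. The steepest were CCNF and CDCA8, each with a slope of -1.63 (log2 for each 10-fold of dose, SE 0.26 and 0.24, padj 7.61e-04 and 4.72e-04), then KIF18A with -1.33 (SE 0.22, padj 8.11e-04), AURKA and INCENP with -1.29 each (SE 0.18 and 0.20, padj 2.73e-04 and 5.69e-04) and TTK with -1.18 (SE 0.32, padj 0.0182). The slope of CDC20 was -0.05 (SE 0.08, padj 0.654). The upward trend was that of PRC1 with 0.68 (SE 0.13, padj 0.00176), which at 100 nM was below DMSO; the slope was 0.635 with library size and 0.193 (padj 0.124) with the mitochondrial scaling. Between 9 and 13 members passed when wells of 1 replicate number were left out, 9 without replicate 1 and 9 without replicate 3.

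With Homoharringtonine 25 members had an upward and 0 a downward trend, against 21.3% and 23.1% of all genes; at an unadjusted p under 0.05 edgeR gave 30 and 0, and DESeq2 gave 28 and 0 at an adjusted p under 0.05. The steepest were TTK with 1.28 (SE 0.32, padj 0.00748), CENPE with 0.88 (SE 0.25, padj 0.0152), KIF11 with 0.79 (SE 0.19, padj 0.007) and TOP2A with 0.79 (SE 0.19, padj 0.00562). These genes are poor in G and C, at 36.4, 35.1, 39.3 and 38.9% against a median of 42.1% for the members. Their CV in DMSO was 76.4, 72.1, 40.3 and 38.7%. The median GC slope of the Homoharringtonine wells fell with dose, from -0.017 to -0.083 and -0.161. With that slope as a covariate 26 members passed, in either direction. CCNF had 0.11 (SE 0.08, padj 0.297) and FOXM1 -0.11 (SE 0.07, padj 0.205). Without replicate 2 only 5 members passed, and without replicate 3 14 did.

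The difference of the trends, Triptolide minus Homoharringtonine, passed in 26 members, 24 lower and 2 higher, against 21.9% and 19.2% of all genes. It was -2.37 for TTK (SE 0.46, padj 4.59e-04), -1.93 for KIF18A (SE 0.29, padj 4.51e-05), -1.90 for CDCA8 (SE 0.29, padj 4.52e-05), -1.69 for CCNF (SE 0.32, padj 3.61e-04) and -1.60 for AURKA (SE 0.20, padj 6.79e-06). The 2 higher were PRC1 with 0.45 (SE 0.15, padj 0.0221) and FOXM1 with 0.44 (SE 0.11, padj 0.00286), which became 0.243 (padj 0.185) and 0.18 (padj 0.208) with library size and -0.019 (padj 0.946) and -0.11 (padj 0.738) with the mitochondrial scaling. For CDC20 it was 0.04 (SE 0.11, padj 0.807). Without replicate 3 of each dose 15 members passed.

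**Figure D5:**
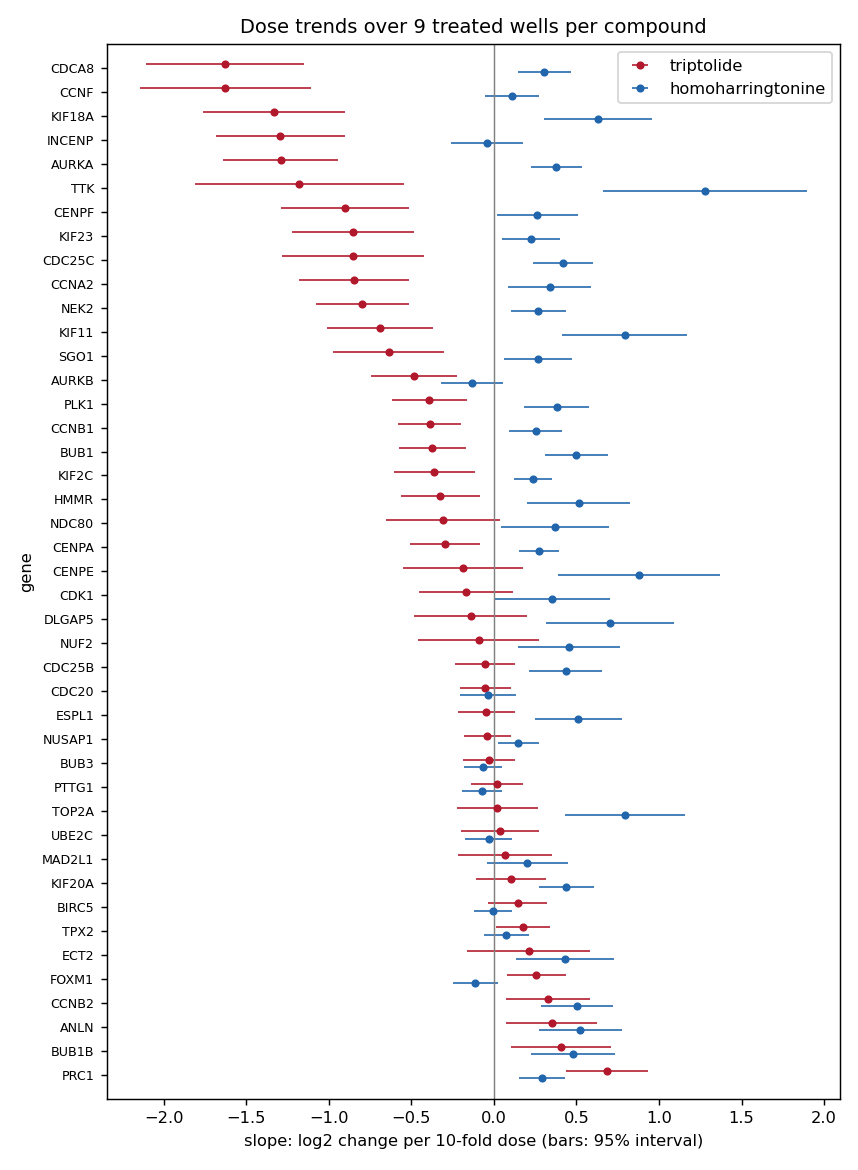
Slope of the log2 level on log10 dose over 9 treated wells for each of the 43 mitosis genes, with Triptolide in red and Homoharringtonine in blue; bars are 95% intervals and genes are ordered by the Triptolide slope. CDCA8 and CCNF stand at -1.63 with Triptolide, CDC20 is close to 0 with each compound, and TTK has the widest gap between compounds.

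The other 4 compounds left the mitosis genes close to DMSO. With Pyrazolanthrone 0, 0 and 2 of 43 members differed from DMSO at 100, 1000 and 10000 nM by edgeR at an adjusted p under 0.05, where 4.77%, 0% and 7.65% of all genes did, and at an unadjusted p under 0.05 8, 0 and 13 did. By DESeq2 3 fell at 100 nM, 0 changed at 1000 nM and 2 rose at 10000 nM. The edgeR pair at 10000 nM were CCNB2 with 0.54 (SE 0.14, padj 0.0192) and AURKA with 0.42 (SE 0.10, padj 0.0103). The fitted 95% intervals of the members at 10000 nM ran from -1.128 to 1.555 at the widest.

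With Nilotinib 3, 0 and 5 members fell, where 9.08%, 3.95% and 14.4% of all genes differed in either direction. At 100 nM they were KIF20A with -0.76 (SE 0.18, padj 0.00777), CDC25C with -0.70 (SE 0.21, padj 0.0369) and the spindle protein NUSAP1 with -0.52 (SE 0.11, padj 0.00272). At 10000 nM they were NUSAP1 with -0.43 (SE 0.09, padj 0.00178), FOXM1 with -0.41 (SE 0.12, padj 0.018), separase, ESPL1, with -0.40 (SE 0.11, padj 0.0121), INCENP with -0.37 (SE 0.11, padj 0.0243) and CCNF. The mitochondrially encoded mRNAs made up 0.35 to 0.387% of the counts in these wells at 10000 nM; their part in the result was not tested. NUSAP1 thus differed at the lowest and the highest dose, and 0 members did so at 1000 nM. At an unadjusted p under 0.05 7, 3 and 9 members differed at the 3 doses. By DESeq2 5, 2 and 9 fell and 0 rose.

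With MK-2206 0 members differed from DMSO by edgeR at any dose, where 0.0648%, 1.52% and 3.15% of all genes did; 1, 2 and 0 had an unadjusted p under 0.05, and DESeq2 gave 0 at each dose. With Miglitol 0 differed at any dose, as did 0% of all genes; 2, 2 and 20 had an unadjusted p under 0.05, and DESeq2 gave 0 at each dose. The widest bounds of the members' 95% intervals were -1.26 and 0.724 with MK-2206 at 10000 nM and -0.614 and 1.907 with Miglitol at 10000 nM.

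At 10000 nM these compounds, without Miglitol, were compared in 3 pairs. Pyrazolanthrone stood above Nilotinib in 15 members at an adjusted p under 0.05, where 2.88% of all genes did, with a median difference of 0.294; the largest were AURKA with 0.50 (SE 0.06, padj 0.00108) and CCNB2 with 0.44 (SE 0.06, padj 0.00211), and none exceeded 1. Between 4 and 13 members passed when a well was left out. Between Pyrazolanthrone and MK-2206 0 members passed, where 2.78% of all genes differed, 20 having an unadjusted p under 0.05 and DESeq2 giving 6, and between Nilotinib and MK-2206 0 passed, where 5.63% differed, 7 having an unadjusted p under 0.05 and DESeq2 giving 2.

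Dose trends of the 4 were uneven. With Miglitol 15 members had an upward and 3 a downward trend, against 13.1% and 3.39% of all genes, and with Pyrazolanthrone 10 had an upward and 0 a downward trend, against 9.34% and 10.0% of all genes. The upward trends with Miglitol were led by TTK with 1.05 (SE 0.20, padj 0.027) and CENPE with 0.90 (SE 0.16, padj 0.027), the least steady members in DMSO. The change with Miglitol followed transcript GC content closely across the 43 genes, with r -0.9 (rho -0.92) at 10000 nM and r 0.75 (rho 0.86) at 100 nM, and the GC slope of the Miglitol wells was -0.072 to 0.01 at 10000 nM and 0.174 to 0.398 at 100 nM. With that slope as a covariate 0 members had a trend with either compound, and leaving out wells of 1 replicate number left 0 to 2 with Miglitol and 0 to 19 with Pyrazolanthrone. Nilotinib and MK-2206 gave 0 members with a trend by edgeR, against 2.86% and 0.0286% of all genes, with 7 and 0 at an unadjusted p under 0.05 and 3 and 0 by DESeq2.

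A further list of 104 genes with roles in G2 and M, drawn from textbook membership with earlier results of these data known, was counted beside the members. With Triptolide 59, 61 and 62 of them fell and 12, 22 and 23 rose at 100, 1000 and 10000 nM, where 32.3%, 38.6% and 39.7% of all genes fell and 24.5%, 28.8% and 32.2% rose, with a median log2(Fold Change) of -0.62, -0.665 and -0.789. At 1000 nM 17 of 22 other spindle and cytokinesis genes fell and 0 rose, while among 28 other kinetochore and checkpoint genes 13 fell and 10 rose. Of the subunits and regulators of the anaphase-promoting complex 5 of 17 fell and 5 rose, close to or below the shares of all genes at that dose. At 10000 nM the lowest were FBXO5, an inhibitor of the anaphase-promoting complex, with -6.33 (SE 0.57, padj 3.85e-10) and WEE1, the kinase that holds CDK1 inactive, with -6.21 (SE 0.39, padj 4.43e-13), both further down than any member. The highest were ANAPC15, a subunit of that complex, with 1.47 (SE 0.13, padj 2.58e-10) and the centromere protein CENPK with 1.20 (SE 0.25, padj 1.32e-04).

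With Homoharringtonine 28, 48 and 56 of the 104 rose and 32, 28 and 32 fell, where 31.1%, 35.0% and 36.7% of all genes rose and 32.3%, 33.4% and 37.2% fell, with a median of -0.003, 0.328 and 0.338. At 100 nM both counts were thus slightly below the shares of all genes. At 10000 nM the highest were GADD45A, a stress gene that restrains entry into mitosis, with 3.53 (SE 0.15, padj 5.68e-16) and the centromere protein CENPC with 2.36 (SE 0.21, padj 4.39e-10). The lowest were the lamin gene LMNB1 with -3.21 (SE 0.14, padj 1.08e-15) and the kinetochore gene SPC24 with -3.14 (SE 0.14, padj 1.41e-15). GADD45A was also higher with Nilotinib at 10000 nM, by 1.44 (SE 0.17, padj 1.95e-06), and lower with Triptolide at 10000 nM, by -2.85 (SE 0.25, padj 3.16e-10).

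The change with Triptolide at 1000 nM was only weakly related to the sequence features examined. Across the 43 genes, which are not independent, it had r -0.11 with transcript GC content, -0.04 with transcript length, 0.15 with the length of the 3′ UTR and 0.26 with the number of ATTTA pentamers, a short element found in many unstable mRNAs. The median change was -1.163 in the 26 members with a CHR element, by an exact match of TTTGAA or TTCGAA. It was -1.828 in the 10 with no exact match, which may still hold a variant of it. At 10000 nM the medians were -1.292 and -1.946. At the lowest dose of Triptolide they were -0.83 and -0.942. With Homoharringtonine the median with the element was the lower at 100 nM (-0.291 and -0.145) and the higher at 1000 nM (0.362 and 0.014) and 10000 nM (0.647 and -0.006). CCNF and CDC20, whose promoters are printed at the start, each hold the element, and so do CDCA8, KIF18A and PLK1.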

How the data were processed

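RNA of 72 wells of U2OS cells was sequenced by the authors after poly(A) selection with a stranded mRNA kit. Per the submitters' processing notes, reads were assigned with RSEM on GRCh38, with HTSeq and DESeq2 also named; versions, annotation release and strand setting were not given in the sources used here. The deposited expected counts are RSEM's estimated reads per gene, not normalized. The deposited TPM values, also made by the authors with RSEM, are divided by effective length and sum to the same total in every well. FPKM values were not used here. The methods text gives a middle dose that differs from the labels, and the labels' 1000 nM was used.

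Expected counts were rounded and tested with edgeR 4.0.16 in R 4.3.3 (quasi-likelihood test with TMM scaling; low genes removed by filterByExpr at a minimum count of 10; p-values adjusted by Benjamini-Hochberg over all genes tested). Each compound and dose was set against the 18 DMSO wells, Triptolide against Homoharringtonine at each dose over 6 wells, and Pyrazolanthrone, Nilotinib and MK-2206 against each other at 10000 nM. Trends were fitted on log10 dose over 9 wells, and their difference over 18. "Rose" and "fell" mean an adjusted p under 0.05; some counts also ask for a log2(Fold Change) past 1. The ratio of CCNF to CDC20 was tested by exact permutation over 1330 arrangements in 15 groups. Scripts were tested on simulated data. Alternatives were DESeq2 1.42.0, no filter, a minimum of 10 counts in every well, other scalings, a replicate block, leaving out wells or the 3 shallow libraries, a 1 TPM pseudocount for the ratio and, after seeing the data, the GC slope of each library and the addition of CDC20P1. Positions, symbols and transcript features came from GENCODE release 44 (56104 of 60371 identifiers matched) and promoters from RefSeq. Totals per well ranged from 70767 to 68296309. None of 207 pairs of wells of a group agreed within sampling noise. CCNA2, CENPA, KIF20A, NUSAP1, CDC25C and FOXM1 overlap other expressed genes, so their counts are less certain. The members, the further list and the comparisons were chosen with earlier results of these data known. All 43 members could be named; of the further list, the 2 highest and 2 lowest of those past both thresholds at 10000 nM were named for each compound.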

Additional observations from a re-analysis of the deposited data

Results flagged for a closer look

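The dose trends of Triptolide and Homoharringtonine differed in 26 of the 43 mitosis genes by the test of the difference itself in edgeR (adjusted p under 0.05, 18 treated wells). The largest differences, Triptolide minus Homoharringtonine, were those of TTK with -2.37, KIF18A with -1.93 and CDCA8 with -1.90 (log2 for each 10-fold of dose). In each of the 3 the slope was negative with Triptolide and positive with Homoharringtonine. TTK was among the least abundant and most variable members in DMSO.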

How the results depend on the processing

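Of the results that answer a comparison, 347 alternative values stayed within 1.5 times or on the same side of the test and 47 did not; of the values of named genes, 1571 kept direction and call, 97 lost the call and 19 reversed. The cause was not tested except where an alternative's own construction shows it. Members past both thresholds with Triptolide at 100 nM numbered 18 and became 3 with at least 10 counts in every well (7 members kept), 29 with library size and 43 with mitochondrial scaling, which also gave 43 at 1000 and 10000 nM. In Homoharringtonine at 100 nM they became 11 with the GC slope and 13 with library size. At 10000 nM they became 6 with the GC slope. Nilotinib at 100 nM gave 0 to 3 when a well was left out (3 without replicate 1) and 8 at 10000 nM with mitochondrial scaling. Triptolide against Homoharringtonine at 100 nM gave 2 with 10 counts in every well, 24 with no filter, 38 with mitochondrial scaling and 16 to 24 without a well (24 without Homoharringtonine replicate 2, 23 without replicate 3). Pyrazolanthrone against MK-2206 gave 0 to 3 (3 without MK-2206 replicate 2).

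The filter of 10 counts in every well removed members under 10 counts in the Triptolide library of 70767 counts, such as CCNF with 6. With that filter they were not tested for the Triptolide trend or against Homoharringtonine at 100 nM. Members with a Triptolide trend became 0 with 10 counts in every well, 37 with mitochondrial scaling and 9 to 13 without a replicate number. For Homoharringtonine they became 14 with mitochondrial scaling and 5 to 25, for Pyrazolanthrone 0 with the GC slope, 2 with mitochondrial scaling and 0 to 19, for Nilotinib 3 with DESeq2, 5 with the GC slope and 26 with mitochondrial scaling, for MK-2206 3 with the GC slope, for Miglitol 0 with the GC slope and 0 to 2, and for the difference of trends 15 to 20. With a pseudocount of 1 TPM the ratio of CCNF to CDC20 differed from DMSO by -2.879 and -2.619 at 1000 and 10000 nM Triptolide.

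Reversed values with Triptolide came from scaling and filtering. FOXM1 at 100 nM had -0.189 with 10 counts in every well and -1.071 with mitochondrial scaling. With mitochondrial scaling at 1000 nM ANLN had -1.918, BIRC5 -1.816, FOXM1 -1.435, MAD2L1 -1.847 and PRC1 -2.08, and at 10000 nM ANLN -2.176, BIRC5 -2.132, FOXM1 -1.691, PRC1 -2.059 and PTTG1 -2.316. With library size PRC1 had -0.086 at 1000 nM and PTTG1 -0.066 at 10000 nM. With the GC slope in Homoharringtonine at 10000 nM, ANLN had -0.106, CDC20 0.022, CDK1 -0.19, NUF2 -0.272 and TOP2A -0.377.

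Replicate numbers occur in every group. In 0 of 21 comparisons did all pairs correlate over 0.1, and 15 of 59 wells correlated best with their own number. The mean correlation of deviations was -0.069 (-0.881 to 0.877) within a number and 0.03 across numbers. These pairs did not set every group against every other, and whether a number marks wells handled together was not tested further. Replicate 1 had the lowest GC slope at each dose of Pyrazolanthrone and Nilotinib and at 100 and 1000 nM Miglitol. With Pyrazolanthrone at 1000 nM it was 0.016, against 0.401 and 0.370. At 1000 and 10000 nM of Triptolide, Homoharringtonine and MK-2206 another replicate was lowest. With a replicate block the counts became 16 for Homoharringtonine at 10000 nM, 2 for Pyrazolanthrone, 1 for Nilotinib and 9 for Miglitol at 10000 nM, 24 for Triptolide against Homoharringtonine at 100 nM, and for trends 11 with Triptolide, 21 with Pyrazolanthrone and 3 with Nilotinib. Depth limits CCNF, TTK, CENPE, SGO1 and ECT2 most in replicate 2 of Triptolide at 100 nM, where the last 4 were listed at 0 TPM.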
